A study of Mus musculus with 16 samples.

Results

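The 8 genes described here, Pdgfra, Cspg4, C1ql1, Gpr17, Bmp4, Neu4, Enpp6 and Tcf7l2, mark oligodendrocyte precursors and the newly formed oligodendrocytes that arise from them. They were taken by symbol from the 38924 genes in the count files, and all 8 passed the filter on low counts that left 18111 genes for testing. The libraries are polyA RNA of brain punches taken from male mice at the periaqueductal gray, where opioids act to relieve pain. Each of the 16 libraries pooled punches of 2 animals, with 4 libraries in each of 4 groups: wildtype naïve, wildtype morphine, RGSz1 KO naïve and RGSz1 KO morphine. The sources used here do not give the dose and duration of morphine, the age and strain of the mice or the allele of the knockout, and no vehicle-injected group is labelled, so handling and drug cannot be told apart. RGSz1, a regulator of G protein signalling, is the product of Rgs20. Rgs20 stood at 11.6 to 14.4 CPM in the wild-type libraries and at 11.4 to 14.0 CPM in the libraries labelled knockout, where CPM is the TMM-scaled count per mega counts of the library. It differed by -0.02 ± 0.07 (log2 ± SE, edgeR adjusted p = 0.943) between the naïve groups and by -0.11 ± 0.07 (adjusted p = 0.669) between the morphine groups. The files give 1 number per gene and show no exons, so this count does not check the knockout label, and the groups are called the libraries labelled knockout throughout.

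Oligodendrocyte precursors persist in the adult brain as a dividing population that carries the PDGF receptor alpha and the NG2 proteoglycan. When a precursor commits to differentiate, it loses these surface proteins and passes through a short stage marked by Gpr17, Bmp4, Neu4, Enpp6 and Tcf7l2 before it makes myelin. In bulk tissue a lower value can come from fewer cells of a type or from less RNA per cell, and these cannot be told apart. Several of the genes are also used by other cells: Cspg4 by pericytes, Pdgfra by meningeal fibroblasts, Bmp4 by cells of vessels and meninges, C1ql1 by some neurons, and Tcf7l2 by thalamic and some midbrain neurons.

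Cspg4 and Enpp6 were the members that passed the test in a comparison of morphine with naïve, so the sequence at the start of each is shown. Both are RefSeq promoter windows of 300 bases on GRCm38.p6, from 250 bases before to 50 bases after the start site, on the plus strand and written 5′ to 3′. The Cspg4 window is chr9:56864854-56865153 with a GC content of 60.0%, and its capitals mark the BMP/SMAD motif GGCGCC, whose first base lies at -95 from the start site. The Enpp6 window is chr8:46986637-46986936 with a GC content of 40.3%, and its capitals mark the SOX motif ACAATG, whose first base lies at -219.
Cspg4: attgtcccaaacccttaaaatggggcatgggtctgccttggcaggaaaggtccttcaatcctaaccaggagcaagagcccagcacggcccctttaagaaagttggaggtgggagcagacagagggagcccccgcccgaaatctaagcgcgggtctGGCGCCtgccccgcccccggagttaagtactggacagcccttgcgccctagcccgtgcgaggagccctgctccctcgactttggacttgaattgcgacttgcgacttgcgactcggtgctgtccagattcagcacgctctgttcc
Enpp6: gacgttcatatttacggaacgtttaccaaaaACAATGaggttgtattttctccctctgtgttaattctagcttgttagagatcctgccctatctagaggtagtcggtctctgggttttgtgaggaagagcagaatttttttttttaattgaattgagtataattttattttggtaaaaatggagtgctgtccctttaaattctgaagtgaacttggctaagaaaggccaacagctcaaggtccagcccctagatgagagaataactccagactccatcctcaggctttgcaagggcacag

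Short motifs of 5 classes were searched on both strands of these windows: TCF/LEF (the word CTTTGAA, the word CTTTGAT or the word CTTTGTT), SOX (the word ACAAAG or the word ACAATG), the E-box CAGCTG, the glucocorticoid half-site AGAACA and the BMP/SMAD word GGCGCC. The TCF/LEF word CTTTGTT holds the reverse complement of ACAAAG, so those classes can match at 1 place. Of 32851 windows of the same length, 11.9% held the BMP/SMAD motif, 28.6% a SOX motif, 13.9% a TCF/LEF motif, 19.0% the glucocorticoid half-site and 16.3% the E-box. A match is a run of letters and was not tested as a binding site. RefSeq windows were matched for 6 of the 8 genes. The Pdgfra, Bmp4 and Neu4 windows held no match of any of these classes. The Tcf7l2 window at chr19:55741560-55741859 held 2 SOX and 2 BMP/SMAD matches. A second, downstream Tcf7l2 window, at chr19:55895071-55895370, held 1 TCF/LEF, 1 SOX and 1 glucocorticoid half-site match, the TCF/LEF and SOX matches starting at the same base.

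Library depth ranged from 19.1 to 55.0 mega counts over genes, and the members' raw counts from 24 for Bmp4 to 12189 for Tcf7l2. A pair of libraries stands apart in markers of meningeal fibroblasts, cells of the brain's coverings. The summed level of 10 such markers was 473 CPM in wild-type naïve replicate 2 and 332 CPM in knockout-labelled morphine replicate 3, against 138 CPM in knockout-labelled morphine replicate 1 and 57.4 to 77.2 CPM in the other 13. Serotonin neuron markers also moved with treatment among the libraries labelled knockout. Their summed level was 145 to 389 CPM in the naïve and 576 to 1776 CPM in the morphine libraries, and 10 of 10 were called higher (2 without naïve replicate 2, 6 without naïve replicate 3, 4 without morphine replicate 2, 3 without morphine replicate 4). In the wild type 0 of 10 were called, with summed levels of 252 to 899 CPM naïve and 716 to 934 CPM after morphine. All 10 differences were above 0 there, with a median log2 of 0.557. In the average of both genotypes 9 of 10 were called higher. The interaction of genotype and morphine gave 0 calls among them with edgeR, so the genotypes are not shown to differ in this. Among all genes, 4.41% were called in the wild type, 11.5% in the libraries labelled knockout and 17.1% in the average. Markers of general neurons (7258 to 8980 CPM summed), astrocytes (3380 to 3905 CPM) and mature oligodendrocytes (7114 to 12523 CPM) were present in every library. No marker of the meningeal, serotonin neuron, general neuron and astrocyte lists was at 0 in any library. The mature oligodendrocyte genes were not checked for this one by one.

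Per kilobase of exon, Tcf7l2 had the highest level of the 8 genes, 18.1 ± 3.83 CPM per kb (SD, n = 16 libraries), and Bmp4 the lowest, 0.756 ± 0.561. Between them stood Gpr17 at 11.4 ± 1.27, C1ql1 at 10.1 ± 2.58, Pdgfra at 8.63 ± 0.576, Neu4 at 3.48 ± 0.301, Cspg4 at 2.39 ± 0.253 and Enpp6 at 1.70 ± 0.336 CPM per kb. The neighbours Gpr17 and C1ql1 kept this order in 11 of 16 libraries, as did C1ql1 and Pdgfra, so these levels overlap. Enpp6 was above Bmp4 in 15 libraries, and each other neighbouring pair kept its order in all 16. The lengths are those of all annotated exons of a gene, so a gene that uses a short transcript is understated.

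**Figure D1:**
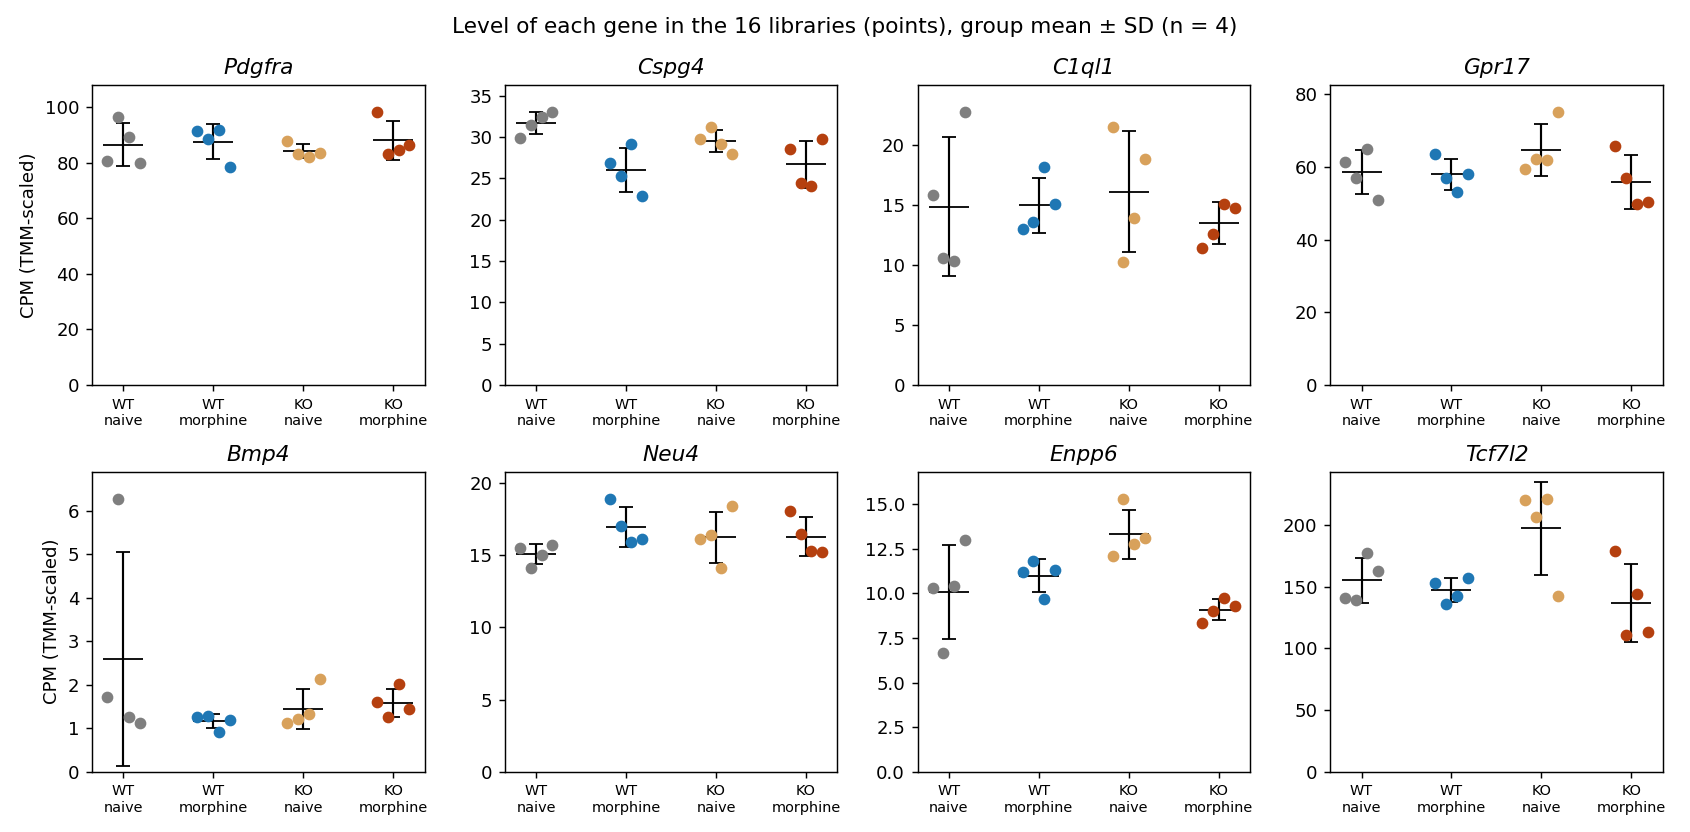
TMM-scaled CPM (vertical axes, from 0) of the 8 genes in the 16 libraries. Points are libraries, and bars are the mean ± SD of the 4 libraries of a group (WT, wild type; KO, labelled knockout). All 4 wild-type morphine libraries lie below all 4 wild-type naïve libraries for Cspg4, and Bmp4 has 1 high library at 6.27 CPM. Wild-type groups did not overlap, in either direction, for 11.0% of all genes.

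Of the 8 genes, 1 was called lower and 0 higher after morphine in the wild type, where 4.41% of all genes tested were called in either direction at an adjusted p under 0.05. The libraries labelled knockout gave the same counts, 1 lower and 0 higher, against 11.5% of all genes. With both genotypes averaged, 1 was called lower, against 17.1%. The median log2 difference of the 8 genes was -0.002 in the wild type, -0.173 in the libraries labelled knockout and -0.164 in the average, beside -0.007, 0.000 and -0.007 for all genes tested. The morphine comparisons with the average share their samples, and the called gene was not the same in each: Cspg4 in the wild type and in the average, Enpp6 in the libraries labelled knockout. Genotype gave 0 calls among the 8 genes in naïve mice, where 0.906% of all genes were called, and 0 in morphine-treated mice, where 0.530% were called. The interaction of genotype and morphine gave 0 calls among the 8 genes and 0% among all genes with edgeR, with 2200 of 18111 genes at an unadjusted p under 0.05; DESeq2 called 107 genes. In these last 3 comparisons, 1, 0 and 1 of the members had an unadjusted p under 0.05, and DESeq2 and limma-voom each called 0 of them.

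**Figure D2:**
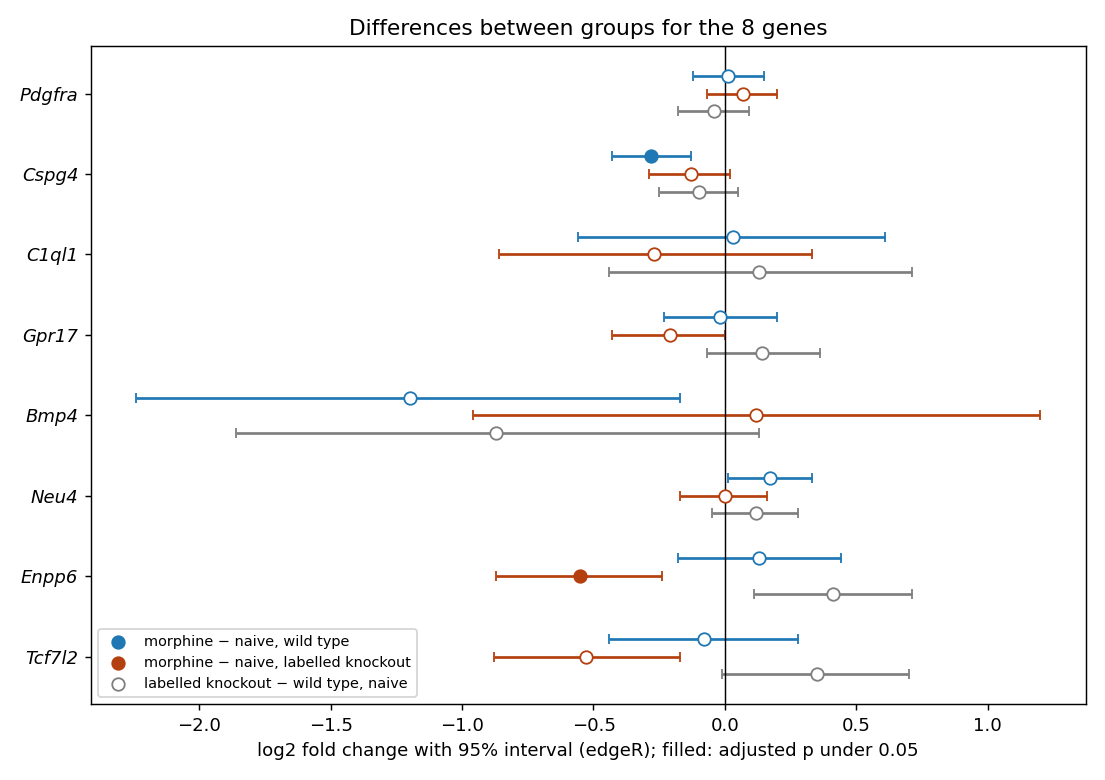
log2 fold changes with 95% intervals from edgeR (horizontal axis) for the 8 genes (rows) in 3 comparisons (colours). Filled points have an adjusted p under 0.05: Cspg4 at -0.28 in the wild type and Enpp6 at -0.55 in the libraries labelled knockout.

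Among the genes of the precursor stage, Pdgfra, the receptor for the mitogen PDGF-A, lies on chromosome 5 (75152292 to 75198215, plus strand). It read 80.6, 96.4, 89.1 and 79.8 CPM in wild-type naïve replicates 1 to 4 and 91.2, 88.6, 91.7 and 78.3 CPM after morphine. The libraries labelled knockout read 87.9, 83.0, 82.1 and 83.4 CPM naïve and 98.1, 82.9, 84.6 and 86.3 CPM after morphine. The groups overlapped in every comparison. Morphine differed from naïve by 0.01 ± 0.06 in the wild type (95% interval -0.12 to 0.15, adjusted p = 0.937) and by 0.07 ± 0.07 in the libraries labelled knockout (-0.07 to 0.20, adjusted p = 0.579). Its 95% interval in the average, -0.06 to 0.14, is the narrowest among the 8 genes. Over the 16 libraries Pdgfra correlated with the astrocyte score, the mean centred log2 CPM of 10 markers, at Pearson's r = 0.70 (adjusted permutation p = 0.0295) and Spearman's rho = 0.49 (adjusted permutation p = 0.251). With the general neuron score it correlated at r = -0.67 (adjusted permutation p = 0.0366) and rho = -0.55 (adjusted permutation p = 0.213). Without the 2 libraries farthest from the median score, which include wild-type naïve replicate 2 in both cases, r was 0.32 and -0.44. Both relations thus depend in part on those libraries. After removing group means r was 0.82 and -0.92, with those libraries included. With the meningeal fibroblast score Pdgfra correlated at r = 0.42 (adjusted permutation p = 0.278) and rho = 0.14 (adjusted permutation p = 0.803).

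Of 5 other PDGF ligands and receptors, Pdgfrb, the receptor carried by pericytes, fell by 0.73 ± 0.08 in the wild type (adjusted p = 4.05e-05) and by 0.35 ± 0.08 in the libraries labelled knockout (adjusted p = 0.0112). Both calls held when any 1 of the 16 libraries was left out. Pdgfd, a further ligand of that receptor, rose by 0.53 ± 0.15 in the libraries labelled knockout (adjusted p = 0.0298), a call lost without naïve replicate 1, 2 or 3 or morphine replicate 1, 2 or 4. No other gene of this list was called in either genotype. The shares of all genes called were 4.41% in the wild type and 11.5% in the libraries labelled knockout. The Pdgfrb interaction was 0.38 ± 0.11 (edgeR adjusted p = 0.255), so the genotypes are not shown to differ in their Pdgfrb response. Between the naïve groups 1 gene of the list, Pdgfrb, was called lower in the libraries labelled knockout, where 0.906% of all genes were called. That count fell to 0 without wild-type naïve replicate 1, 2 or 3 or knockout-labelled naïve replicate 1 or 4.

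Cspg4, which encodes the NG2 proteoglycan, lies on chromosome 9 (56865033 to 56899870, plus strand). It read 29.9, 31.4, 32.4 and 33.0 CPM in the wild-type naïve libraries and 26.8, 25.3, 29.2 and 22.9 CPM in the wild-type morphine libraries. Every morphine library was thus below every naïve one. The groups did not overlap, in either direction, for 11.0% of all genes in this comparison. The group means were 31.6 ± 1.34 and 26.0 ± 2.62 CPM (SD, n = 4), and Cspg4 fell by 0.28 ± 0.07 on the log2 scale, to 0.824 of the naïve level (95% interval 0.742 to 0.915, adjusted p = 0.0346). The libraries labelled knockout read 29.8, 31.2, 29.2 and 28.0 CPM naïve and 28.6, 24.4, 24.1 and 29.7 CPM after morphine. There morphine replicates 1 and 4 lay inside the naïve range, and the difference was -0.13 ± 0.07 (adjusted p = 0.265). The interaction of 0.14 ± 0.10 (adjusted p = 0.591) did not pass the test, so the genotypes are not shown to differ. In the average of both genotypes Cspg4 fell by 0.21 ± 0.05, to 0.866 of the naïve level (95% interval 0.804 to 0.933, adjusted p = 0.00978).

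The averaged call of Cspg4 held in all 23 alternative analyses, with adjusted p from 0.00273 to 0.0253. The wild-type call did not: it was lost without naïve replicate 2, 3 or 4 or morphine replicate 1, 2 or 4, with adjusted p up to 0.11. Because pericytes also express Cspg4, their 12 markers were read beside it. Their summed level was 224 to 344 CPM in the wild-type naïve and 227 to 239 CPM in the wild-type morphine libraries, and 241 to 285 and 213 to 324 CPM in the libraries labelled knockout. Of the 12, 1 (Pdgfrb) was called lower in the wild type and 2 (Pdgfrb and Rgs5) in the libraries labelled knockout, the second count falling to 1 without naïve replicate 2 or 4 or morphine replicate 1, 2 or 4. The shares of all genes called in these comparisons, in either direction, were 4.41% and 11.5%. Over the 16 libraries Cspg4 and the score of these markers (their mean centred log2 CPM) correlated at r = 0.14 (adjusted permutation p = 0.725) and rho = 0.32 (adjusted permutation p = 0.501), at r = 0.44 without the 2 libraries farthest from the median score, and at r = -0.21 after removing group means. The pericytes' part in the Cspg4 result was not tested further.

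C1ql1, a secreted protein that binds the synaptic receptor Adgrb3, lies on chromosome 11 (102939264 to 102946688, minus strand). It varied more within groups than between them: 15.8, 10.6, 10.3 and 22.7 CPM in wild-type naïve, 13.0, 13.6, 18.1 and 15.1 CPM in wild-type morphine, 21.5, 10.2, 13.9 and 18.8 CPM in knockout-labelled naïve and 11.4, 12.6, 15.1 and 14.7 CPM in knockout-labelled morphine libraries. Both naïve groups spanned the morphine libraries. The difference was 0.03 ± 0.27 in the wild type (95% interval -0.56 to 0.61) and -0.27 ± 0.27 in the libraries labelled knockout (-0.86 to 0.33), intervals that leave changes in either direction possible. Of 7 genes related to C1ql1 and Gpr17, 0 were called with edgeR in either genotype, beside 4.41% and 11.5% of all genes. The wild-type count became 1 or 2 without wild-type naïve replicate 4, wild-type morphine replicate 1 or knockout-labelled morphine replicate 1 or 3. In the average 1 was called lower, beside 17.1% of all genes, and leaving out 1 library gave 0 to 3. The smallest p in the wild type were those of P2ry12 (-0.36 ± 0.10, adjusted p = 0.0608) and C1ql3 (0.29 ± 0.11, adjusted p = 0.159). Among the libraries labelled knockout they were those of Cysltr1 (-0.67 ± 0.31, adjusted p = 0.190) and P2ry12 (-0.16 ± 0.11, adjusted p = 0.376).

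A further 12 genes of the precursor stage were tested, and their median difference was -0.012 in the wild type and 0.007 in the libraries labelled knockout. In the wild type 0 were called with edgeR, 4 having an unadjusted p under 0.05. That count became 1 without wild-type morphine replicate 3. For the libraries labelled knockout 1 was called: Gpr37l1, a G protein-coupled receptor also found in astrocytes, fell by 0.18 ± 0.05 (adjusted p = 0.0244), a call lost without naïve replicate 2 or 4 or morphine replicate 1 or 2. In the average, 2 rose, Vcan (0.18 ± 0.05) and Xylt1 (0.11 ± 0.03), and 2 fell, Gpr37l1 (-0.15 ± 0.04) and Pcdh15 (-0.13 ± 0.04). That count of 4 fell to 1 or 2 without wild-type naïve replicate 2 or 3, wild-type morphine replicate 1 or 2, or knockout-labelled naïve replicate 1 or morphine replicate 2. Among all genes, 4.41% were called in the wild type, 11.5% in the libraries labelled knockout and 17.1% in the average.

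Among the genes of commitment, Gpr17, a G protein-coupled receptor that holds back maturation, lies on chromosome 18. It read 61.4, 56.8, 64.8 and 51.0 CPM in wild-type naïve and 63.6, 56.8, 53.2 and 58.0 CPM in wild-type morphine libraries. The libraries labelled knockout read 59.3, 62.1, 62.0 and 75.0 CPM naïve and 65.8, 57.0, 49.8 and 50.4 CPM after morphine. There 3 of the 4 morphine libraries lay below all 4 naïve ones, while replicate 1 lay among them. The difference was -0.02 ± 0.10 in the wild type (adjusted p = 0.953) and -0.21 ± 0.10 in the libraries labelled knockout (adjusted p = 0.205). Gpr17 overlaps Lims2 on the opposite strand, and the kit does not mark strand, so their reads cannot be told apart where they overlap. Lims2 itself differed by 0.04 ± 0.09 and -0.11 ± 0.10 in those comparisons, and neither passed the test. Pdgfra, C1ql1, Bmp4 and Enpp6 also overlap annotated genes on the opposite strand, and the same limit applies to them.

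Bmp4, a secreted ligand of the TGF-beta family, lies on chromosome 14 (46383520 to 46390669, minus strand). It read 1.73, 6.27, 1.26 and 1.13 CPM in wild-type naïve libraries and 1.27, 1.28, 0.921 and 1.19 CPM after morphine. In the libraries labelled knockout it read 1.12, 1.22, 1.33 and 2.13 CPM naïve and 1.61, 1.27, 2.01 and 1.44 CPM after morphine. Wild-type naïve replicate 2, the library with the most meningeal marker RNA, stood alone at the top. With it the wild-type difference was -1.20 ± 0.48 (adjusted p = 0.180), and without it -0.23 (adjusted p = 0.715). The interaction likewise went from 1.32 ± 0.70 to 0.35. Bmp4 correlated with the meningeal score at r = 0.82 (adjusted permutation p = 0.0143, rho = 0.62, adjusted permutation p = 0.163) and with the pericyte score at r = 0.82 (adjusted permutation p = 0.0108, rho = 0.54, adjusted permutation p = 0.213). Without wild-type naïve replicate 2 and knockout-labelled morphine replicate 3, r was 0.40 and 0.50, so both relations rest largely on those libraries. The 3 genes whose log2 CPM followed Bmp4 most closely over the 16 libraries were Nid1 (r = 0.91), Col6a2 (0.91) and Abi3bp (0.90), all of which encode extracellular matrix proteins. They were picked for the highest r among 15033 genes. Wild-type naïve replicate 2 is included, and their r without it was not computed.

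Of 18 other BMP pathway genes, 1 was called in the wild type: Smad6, an intracellular inhibitor of the pathway, fell by 0.96 ± 0.25 (adjusted p = 0.0387), a call lost without wild-type naïve replicate 2 or 3, wild-type morphine replicate 1, 2 or 4, or knockout-labelled naïve replicate 2. Among the libraries labelled knockout 2 were called: Smad7, a further inhibitor, fell by 0.36 ± 0.06 (adjusted p = 0.00163, held without any 1 library), and the ligand Bmp2 fell by 0.46 ± 0.13 (adjusted p = 0.0239). The Bmp2 call was lost without naïve replicate 3 or 4 or morphine replicate 4. Across all genes tested, 4.41% were called in the wild type and 11.5% in the libraries labelled knockout.

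Neu4, a sialidase that trims sialic acid from glycoproteins and glycolipids, lies on chromosome 1 (94020451 to 94028334, plus strand). It read 15.5, 14.1, 15.0 and 15.7 CPM in wild-type naïve and 18.9, 17.0, 15.9 and 16.1 CPM in wild-type morphine libraries. The lowest morphine library was just above the highest naïve one, but the difference of 0.17 ± 0.08 did not pass the test (adjusted p = 0.230). Cspg4 and Neu4 make 2 of 8 members whose wild-type groups did not overlap, in opposite directions, against 11.0% of all genes in either direction. The libraries labelled knockout read 16.1, 16.4, 14.1 and 18.4 CPM naïve and 18.1, 16.5, 15.3 and 15.2 CPM after morphine, a difference of 0.00 ± 0.08 (95% interval -0.17 to 0.16).

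Enpp6, a choline-specific glycerophosphodiesterase that marks oligodendrocytes as they form, lies on chromosome 8 (46986887 to 47096762, plus strand). For the libraries labelled knockout it read 12.1, 15.3, 12.8 and 13.1 CPM naïve and 8.32, 8.99, 9.76 and 9.30 CPM after morphine. The highest morphine library was below the lowest naïve one. Enpp6 was the 1 member of 8 whose naïve and morphine groups did not overlap there, against 17.1% of all genes, counted in either direction. The means were 13.3 ± 1.37 and 9.09 ± 0.604 CPM (SD, n = 4), and Enpp6 fell by 0.55 ± 0.15, to 0.681 of the naïve level (95% interval 0.549 to 0.845, adjusted p = 0.0241). The call was lost without naïve replicate 2 (adjusted p = 0.0837) or 4 (0.0504) or morphine replicate 1 (0.0703), 2 (0.0623) or 4 (0.0554), and the log2 difference stayed between -0.60 and -0.48 in all 24 alternatives.

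In the wild type Enpp6 read 10.3, 6.64, 10.4 and 13.0 CPM naïve and 11.2, 11.8, 9.69 and 11.3 CPM after morphine. The naïve libraries spanned the morphine ones, and the difference was 0.13 ± 0.14 (adjusted p = 0.655), or -0.04 without naïve replicate 2, the low library. The interaction was -0.68 ± 0.21 with an adjusted p of 0.270, and -0.52 without that library, so the genotypes are not shown to differ in their Enpp6 response. Between the naïve groups Enpp6 differed by 0.41 ± 0.14 (adjusted p = 0.220), which became 0.56 (adjusted p = 0.0464) without wild-type naïve replicate 4 and 0.25 (adjusted p = 0.381) without wild-type naïve replicate 2. In the average of both genotypes it differed by -0.21 ± 0.10 (adjusted p = 0.179), and by -0.30 (adjusted p = 0.00619) without wild-type naïve replicate 2.

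Enpp6 followed the genes of mature myelin from library to library. A score, the mean of the centred log2 CPM of 19 mature myelin genes, correlated with Enpp6 at r = 0.88 (permutation p = 1.0e-05, the smallest that 100000 permutations can give, adjusted p = 5.6e-04) and rho = 0.91 (adjusted p = 0.00112) over the 16 libraries. All p-values of correlations here were adjusted over 56 relations, each member with each of 7 marker lists. By r, 6 passed 0.05: Enpp6 with myelin, Tcf7l2 with serotonin, Pdgfra with astrocyte and general neuron, and Bmp4 with meningeal and pericyte markers. The permutations shuffled all 16 libraries without regard to group, so these p-values can also reflect differences between groups. Without the 2 libraries farthest from the median score r was 0.88, and after removing group means it was 0.86. Genes most like Enpp6 included Sort1 (r = 0.93) and Rtn4ip1 (0.92).

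**Figure D3:**
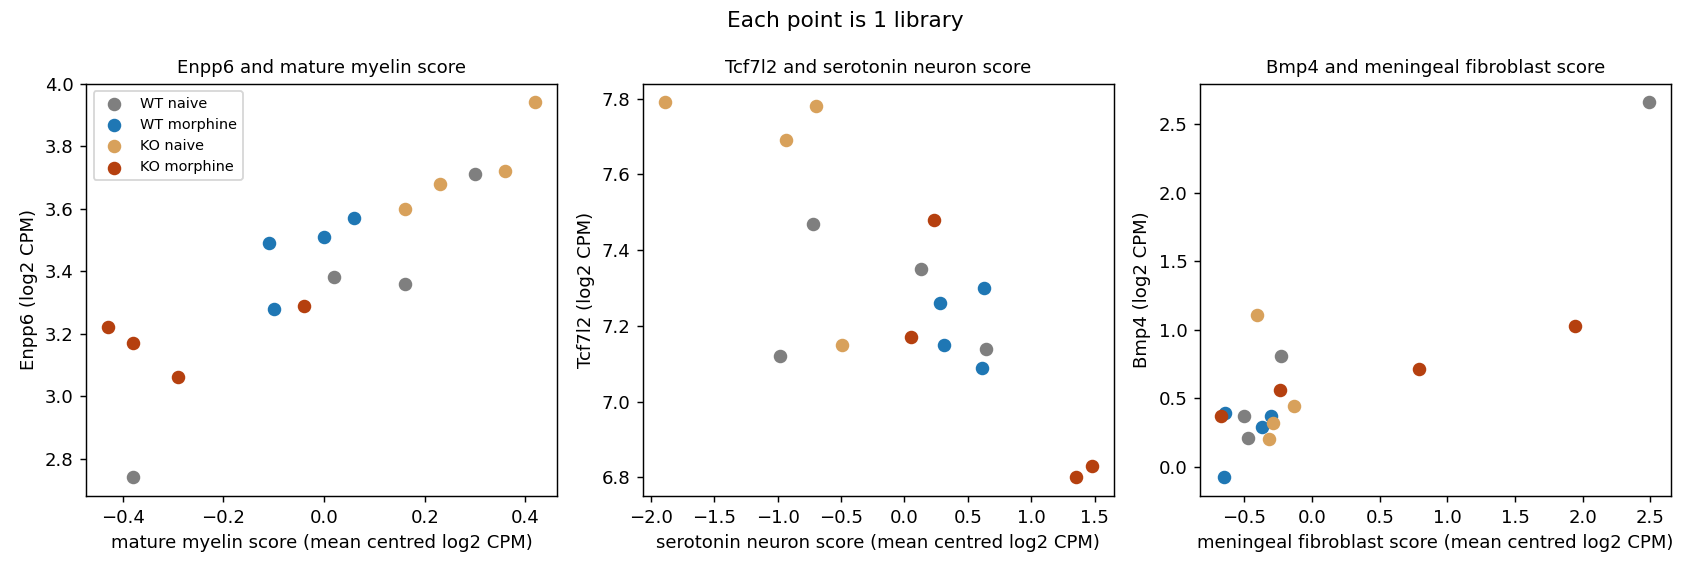
log2 CPM of Enpp6, Tcf7l2 and Bmp4 (vertical axes) against the score of a marker list, the mean centred log2 CPM of its genes (horizontal axes), 1 point per library, coloured by group. Enpp6 rises with the mature myelin score (r = 0.88) in libraries of all 4 groups, Tcf7l2 is lower where the serotonin neuron score is higher (r = -0.78), and the highest Bmp4 point is the library with the highest meningeal score, 2.49.

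In the libraries labelled knockout, 13 of the 19 mature myelin genes fell after morphine and 0 rose, with a median of -0.597. The summed level was 10851 to 12523 CPM naïve and 7538 to 9691 CPM after morphine. Among those that fell were Adamts4 (-0.94 ± 0.11), a secreted protease, Erbb3 (-0.92 ± 0.16), a neuregulin receptor, Car2 (-0.60 ± 0.09), Aspa (-0.65 ± 0.11) and Opalin (-0.53 ± 0.10). The count fell to 7 without naïve replicate 2 or morphine replicate 2 or 4. In the wild type 2 of the 19 fell, Erbb3 (-0.62 ± 0.15) and Adamts4 (-0.41 ± 0.11), with a median of -0.043. Leaving out single libraries gave 0 to 4 calls there. Of all genes tested, 11.5% and 4.41% were called in these comparisons. In the average of both genotypes 10 of the 19 fell and 0 rose, where 17.1% of all genes were called. All 19 differences were below 0 there, with a median of -0.299, and leaving out single libraries gave 8 to 15 calls. The interaction gave 0 calls among the 19 genes, with 14 at an unadjusted edgeR p under 0.05 and a median of -0.528. The genotypes are thus not shown to differ in their response. Between the naïve groups 0 of the 19 were called, but all 19 were higher in the libraries labelled knockout, with a median of 0.230. The part of these genes in the Enpp6 result was not tested. The serotonin neuron score also differed between the naïve and morphine libraries labelled knockout. It correlated with Enpp6 at r = -0.29 (adjusted permutation p = 0.41) and rho = -0.37 (adjusted permutation p = 0.446) over the 16 libraries. Leaving out the 2 libraries farthest from the median score gave r = -0.13, and removing group means gave r = 0.38.

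**Figure D4:**
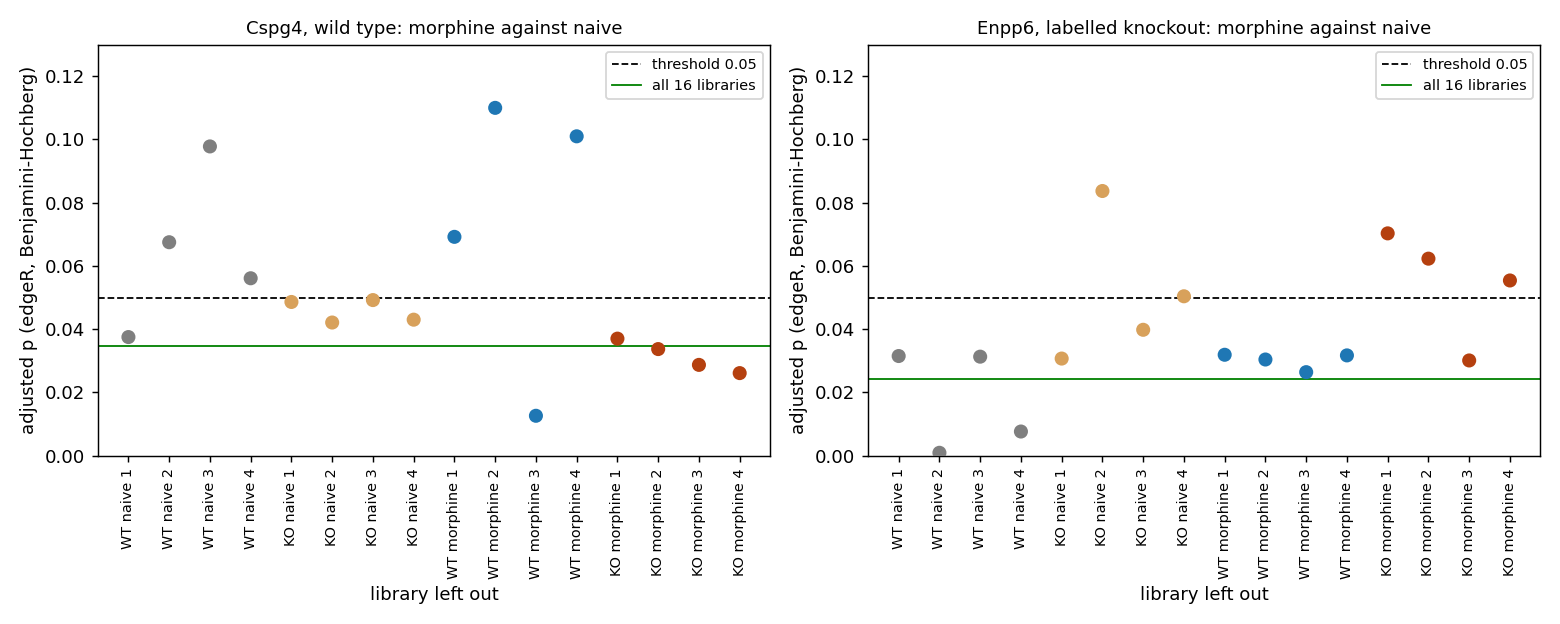
Adjusted p (vertical axis, edgeR) of the Cspg4 difference in the wild type and the Enpp6 difference in the libraries labelled knockout when 1 library (horizontal axis) is left out. The solid line is the value with all 16 libraries (0.0346 and 0.0241) and the dashed line the threshold of 0.05; 6 of 16 points lie above it for Cspg4 and 5 of 16 for Enpp6.

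Of 7 other sialidases and phosphodiesterases of the Enpp family, 0 were called in the wild type, where the smallest p were those of Enpp5 (0.13 ± 0.04, adjusted p = 0.0986) and Neu2 (-0.40 ± 0.16, adjusted p = 0.172). Among the libraries labelled knockout 2 fell, Enpp2 (-0.35 ± 0.10, adjusted p = 0.0347), the enzyme autotaxin, and Enpp4 (-0.24 ± 0.07, adjusted p = 0.0355). Leaving out 1 library of those 2 groups gave 0 to 2 calls. The wild-type count became 1 without wild-type naïve replicate 4. Across all genes, 4.41% were called in the wild type and 11.5% in the libraries labelled knockout.

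Tcf7l2, a transcription factor that pairs with beta-catenin at Wnt target genes, lies on chromosome 19 (55741820 to 55933654, plus strand). For the libraries labelled knockout it read 220, 206, 221 and 142 CPM naïve and 179, 111, 144 and 113 CPM after morphine. Naïve replicate 4 lay with the morphine libraries, and the other 3 lay above all of them. The difference of -0.53 ± 0.17 just missed the threshold (95% interval -0.88 to -0.17, adjusted p = 0.0602). It passed without naïve replicate 4 (adjusted p = 0.0194), without morphine replicate 1 (0.0186), with the DESeq2 Wald test (0.0179) and with a stricter filter on low counts (0.0498). It did not pass in the other 20 of 24 alternatives, where the adjusted p reached 0.180 with only the groups compared. In the wild type Tcf7l2 read 141, 139, 177 and 163 CPM naïve and 153, 136, 142 and 157 CPM after morphine, which overlapped, and the difference was -0.08 ± 0.16 (adjusted p = 0.834). The interaction was -0.45 ± 0.23 (adjusted p = 0.466). In the average Tcf7l2 differed by -0.30 ± 0.12 (adjusted p = 0.0976), which passed the test without knockout-labelled naïve replicate 4 or morphine replicate 1.

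Tcf7l2 was lower in libraries with more serotonin marker RNA, with r = -0.78 (adjusted permutation p = 0.0101) and rho = -0.65 (adjusted permutation p = 0.134) over the 16 libraries. The permutations ignored group, so these p-values can also reflect differences that both share between groups. Without the 2 libraries farthest from the median score r was -0.64, and after removing group means it was -0.57. With the score of 8 thalamic and tectal neuron markers Tcf7l2 correlated at r = 0.30 (adjusted permutation p = 0.409) and rho = 0.32 (adjusted permutation p = 0.501). The part of serotonin neurons, or of where the punch was taken, in the Tcf7l2 difference was not tested. Of 14 other Tcf/Lef partners and Wnt targets, 3 fell in the wild type: Rnf43, a feedback inhibitor that removes Wnt receptors (-1.05 ± 0.13, adjusted p = 7.86e-05), Nkd1, an inhibitor of Dishevelled (-0.43 ± 0.09, adjusted p = 0.00927), and Apcdd1, an inhibitor at the cell surface (-0.42 ± 0.08, adjusted p = 0.00396). In the libraries labelled knockout Rnf43 (-0.56 ± 0.13) and Nkd1 (-0.45 ± 0.09) fell. These 5 calls held when any 1 library was left out. The counts of the list rose to 5 and 4 without wild-type naïve replicate 4. With all 16 libraries, 4.41% of all genes were called in the wild type and 11.5% in the libraries labelled knockout.

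Of 19 further genes of committed and newly formed oligodendrocytes, 2 rose and 1 fell in the wild type, with a median of 0.011. Mycl, of the Myc family, rose by 0.38 ± 0.07 (adjusted p = 0.00249) and Tns3, an adhesion protein, by 0.33 ± 0.04 (adjusted p = 6.95e-05), and both calls held without any 1 library. Mpzl1 fell by 0.21 ± 0.05, a call lost without naïve replicate 1, 2 or 3 or morphine replicate 2, 3 or 4. Among the libraries labelled knockout 2 rose and 5 fell, with a median of -0.019. Mycl rose by 0.42 ± 0.07, while Sirt2, a deacetylase abundant in myelin, fell by 0.21 ± 0.04 and Bcan, which encodes the matrix proteoglycan brevican, by 0.28 ± 0.06. Those 3 calls held without any 1 library. Bcas1, a marker of oligodendrocytes starting to myelinate, fell by 0.53 ± 0.13 (adjusted p = 0.0167), a call lost without naïve replicate 2 or 4 or morphine replicate 4. The count of 7 fell to 4 without naïve replicate 2 or 4 or morphine replicate 2. Among all genes tested, 4.41% were called in the wild type and 11.5% in the libraries labelled knockout.

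Of 16 transcription factors of the lineage, 4 fell and 0 rose in the wild type, and 4 fell and 1 rose in the libraries labelled knockout. The shares of all genes called in these comparisons, in either direction, were 4.41% and 11.5%. Sox10, which is needed for the lineage and for myelin gene expression, fell by 0.65 ± 0.10 in the wild type (adjusted p = 0.00231) and by 0.89 ± 0.11 in the libraries labelled knockout (adjusted p = 0.000298), and both calls held when any 1 library was left out. Nkx6-2, which acts in myelinating cells, fell by 0.55 ± 0.12 and 0.73 ± 0.12, the first call being lost without wild-type naïve replicate 3 or morphine replicate 2. Nkx2-2, which promotes differentiation of precursors, fell by 0.54 ± 0.13 in each. Its wild-type call was lost without naïve replicate 1 or morphine replicate 1, 2 or 4, and its other call without knockout-labelled naïve replicate 4 or morphine replicate 2.

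Olig2, which defines the lineage, differed by -0.05 ± 0.13 and 0.03 ± 0.13. For the libraries labelled knockout the factors' count of 5 fell to 3 without naïve replicate 2 or 4 or morphine replicate 4 and to 2 without morphine replicate 2. In the wild type the count of 4 fell to 2 without morphine replicate 2. Between the morphine groups, Zfp488, which promotes oligodendrocyte differentiation, was higher in the libraries labelled knockout by 0.81 ± 0.14 (adjusted p = 0.0116). That call held without any 1 library. The values of Olig2 were picked out after they were seen.

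The 8 genes did not move as a unit over the libraries. Among their 28 pairs, Pearson's r of log2 CPM ran from -0.61 (Pdgfra with Enpp6) to 0.51 (Enpp6 with Tcf7l2), with a median of 0.08, as a description over 16 libraries that share groups and depth. The genes most like Cspg4 included Mccc1 (r = 0.89) and Notch1 (0.89), and those most like Tcf7l2 were Fam122b (0.86), Epha7 (0.86) and Trhr2 (0.84). For Pdgfra they were Aldh6a1, Grem1 and Cnot1 (each 0.83), and for Gpr17 Zfp354a (0.85), Diexf (0.82) and Phf3 (0.79). For C1ql1 they were Nccrp1 (0.84), Nkx6-1 (0.76) and Pnoc (0.74), and for Neu4 Tmsb4x (0.84), Ap4s1 (0.77) and Txndc16 (0.77).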

How the data were processed

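PolyA RNA of 16 periaqueductal gray pools was counted. Per the labels' protocols, each pool held punches of 2 male mice, with RNA from TRIzol and TruSeq RNA v2 libraries, a kit that keeps no strand. The deposited values are whole-number read counts per gene, made by the authors with HTSeq on mm10 according to the submitters' processing notes (limma is named there too). Which aligner, gene annotation and strand option were used is not given in the sources used. HTSeq's tallies of unassigned reads, 38.2 to 40.6% of each file's total, were left out. GENCODE M21 (GRCm38) gave symbols and positions (37607 of 38924 identifiers matched), and promoter windows from RefSeq. No replicate pair agreed within sampling noise, so none was merged.

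Genes passing filterByExpr (minimum count 10) were TMM-scaled and tested with edgeR 4.0.16 (R 4.3.3), quasi-likelihood, robust, fitting the 16 libraries jointly, each group with its own coefficient. P-values were Benjamini-Hochberg adjusted over 18111 genes, with a threshold of 0.05; the common biological coefficient of variation was 0.0835. The procedure was tested on simulated data. Log2 CPM used a prior count of 1. Alternatives were DESeq2 1.42.0 (size factors, Wald test), limma-voom (limma 3.58.1), other filters, only the groups compared, a replicate block, and libraries left out. Members and lists were chosen with earlier results of these data known. Text names all members and, per list, called genes, at most the 6 with the smallest p, or else the 2 with the smallest p; from these some are left out and are not reported here.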

Additional observations from a re-analysis of the deposited data

Results flagged for a closer look

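Bmp4 in wild-type naïve replicate 2 read 6.27 CPM, far above the 1.13 to 1.73 CPM of the other 3 libraries of its group. It was the 1 library set apart from its group among 32 groups tested (8 genes in 4 groups of 4, by Dixon's gap against range), and chance alone sets apart about 5% of such groups. The same library had the highest summed level of meningeal fibroblast markers, 473 CPM, and their part in its Bmp4 value was not tested.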

How the results depend on the processing

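Of the 8 members, the 1 called in the wild type after morphine became 0 with only the groups compared and 0 with the replicate block, and leaving out 1 library gave 0 to 1. The 1 called in the libraries labelled knockout became 2 with the stricter filter (at least 1 CPM in 8 libraries) and 2 with the DESeq2 Wald test, Tcf7l2 joining Enpp6; leaving out 1 library gave 0 to 1. The average gave 2 in place of 1 when wild-type naïve replicate 2 and knockout-labelled morphine replicate 3 were left out together, and 1 to 2 when 1 library was left out. Genotype in naïve mice gave 0, and 0 to 1 with 1 library left out. Genotype after morphine and the interaction gave 0 in every alternative.

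Same-numbered libraries of different groups did not deviate together (r from -0.38 to 0.26), so the numbers are not taken to pair them. The replicate block moved no other count of members called. Over all genes, the alternatives gave 378 to 1252 calls in the wild type (main 798), 1037 to 2683 in the libraries labelled knockout (2082), 68 to 376 (164) and 49 to 236 (96) for genotype in naïve and morphine mice, 0 to 107 (0) for the interaction and 2399 to 3391 (3089) for the average. Bmp4, with as few as 24 counts in a library, is the member that depth limits most.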
